A study of Mus musculus with 6 samples.

Results

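The interferon-stimulated genes described here were 42 named genes that respond to interferon or carry its signal: the receptor chains Ifnar1, Ifnar2, Ifngr1 and Ifngr2, the transcription factor Stat2, and genes that encode sensors of foreign nucleic acid, antiviral proteins, ubiquitin-like modifiers and GTPases. They were chosen by symbol, with earlier results of these data known. Each had 1 row among the 48397 rows of the count table, and 34 of the 42 passed the filter on low counts and were tested. The study compared stage 0 invariant natural killer T (iNKT) cells, the earliest thymic progenitors of that lineage, from BALB/c mice and from SKG mice, which carry a mutation that weakens Zap70, the kinase that passes the T cell receptor signal on. Both groups were of the BALB/c strain and 8 to 10 weeks of age. The BALB/c mice had wild-type Zap70, and in the SKG mice the mutation was present in the germ line and therefore in all cells, not only in iNKT cells. The labels name no treatment of either group, with interferon or otherwise. Each of the 3 libraries per genotype came from about 1000 cells pooled from the thymi of 3 mice. The cells were sorted as positive for the PBS57-loaded CD1d tetramer, CD24 and CD69, negative for CD44 and CD8, and low or negative for CD4. The libraries had been amplified before sequencing, and they held between 37176544 and 43115544 reads assigned to genes.

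Type I interferons bind a receptor made of Ifnar1 and Ifnar2, and interferon gamma, the type II interferon, binds one made of Ifngr1 and Ifngr2. Kinases of the Jak family on these receptors phosphorylate transcription factors of the Stat family. A complex that holds Stat2 and Irf9 binds the interferon-stimulated response element (ISRE), and other Stat complexes bind the gamma-activated site (GAS). The genes that these factors switch on restrict viruses and intracellular bacteria. Low levels of interferon are made in the thymus without infection, and developing thymocytes respond to them.

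Many of the members share an ISRE near their start, and the 120 bases before the start of 8 of them are shown here. They are the 3 members whose libraries separated the genotypes (Ifngr1, Ifih1 and Xaf1), and Isg15, Ifit1, Oas1a, Rsad2 and Igtp as examples of ISRE matches in 5 roles. Capitals mark the ISRE letters GAAANNGAAA on the strand shown or the same letters on the other strand. The sequences are from RefSeq (GRCm38.p6) and run 5′ to 3′ on the strand of the gene.
Isg15 (chr4:156200819-156200938, minus strand): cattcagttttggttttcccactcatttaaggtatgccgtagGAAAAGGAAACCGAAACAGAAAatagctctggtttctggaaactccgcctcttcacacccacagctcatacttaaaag
Ifit1 (chr19:34640769-34640888, plus strand): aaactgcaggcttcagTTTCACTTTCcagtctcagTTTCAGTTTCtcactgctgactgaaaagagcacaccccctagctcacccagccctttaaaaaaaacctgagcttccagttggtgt
Oas1a (chr5:120907526-120907645, minus strand): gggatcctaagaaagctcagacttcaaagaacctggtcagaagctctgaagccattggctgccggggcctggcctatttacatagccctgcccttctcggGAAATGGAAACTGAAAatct
Rsad2 (chr12:26456453-26456572, minus strand): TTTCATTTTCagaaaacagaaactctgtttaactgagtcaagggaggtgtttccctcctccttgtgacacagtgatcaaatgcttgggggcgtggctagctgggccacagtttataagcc
Igtp (chr11:58199436-58199555, plus strand): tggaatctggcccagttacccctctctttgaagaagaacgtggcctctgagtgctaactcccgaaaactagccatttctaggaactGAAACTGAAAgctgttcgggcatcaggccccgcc
Ifngr1 (chr10:19591829-19591948, plus strand): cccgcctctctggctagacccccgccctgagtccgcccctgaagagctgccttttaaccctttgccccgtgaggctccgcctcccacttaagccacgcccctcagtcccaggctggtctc
Ifih1 (chr2:62646256-62646375, minus strand): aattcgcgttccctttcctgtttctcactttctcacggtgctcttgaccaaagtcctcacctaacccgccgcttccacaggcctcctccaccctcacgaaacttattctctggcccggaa
Xaf1 (chr11:72301509-72301628, plus strand): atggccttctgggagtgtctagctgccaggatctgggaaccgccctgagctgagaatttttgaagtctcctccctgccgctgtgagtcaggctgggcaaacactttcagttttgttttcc

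In Isg15 3 overlapping matches began at positions -78, -72 and -66, counted from the gene start. Ifit1 had 2 matches, at -104 and -85, both on the other strand. Oas1a had 2 overlapping ones at -20 and -14, and Igtp had 1 at -34. The window of Ifngr1 held none of these letters, nor did that of Xaf1, and that of Ifih1 held them only past the start, at 33. No match says only that these letters are not in the window.

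A RefSeq promoter window of 300 bases, 250 before and 50 after the start, was at hand for 32 of the 42 members. Of these, 17 (53.1%) held the ISRE letters on either strand, compared with 310 of the 8404 tested genes that had a window (3.69%) and 3.99% of all genes in the RefSeq table. The GAS letters TTCNNNGAA, which read the same on both strands, were in 10 of the 32 (31.2%), compared with 8.21% of tested genes with a window. Among the tested members, the 15 with ISRE letters had a median log2 fold change of SKG over BALB/c of 0.26, with 8 above 0 and 7 below. The 13 tested members with a window but without the letters had a median of -0.25, with 5 above 0 and 8 below. These medians are descriptions, with no test. A match is a match of letters, and binding was not measured here.

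**Figure D1:**
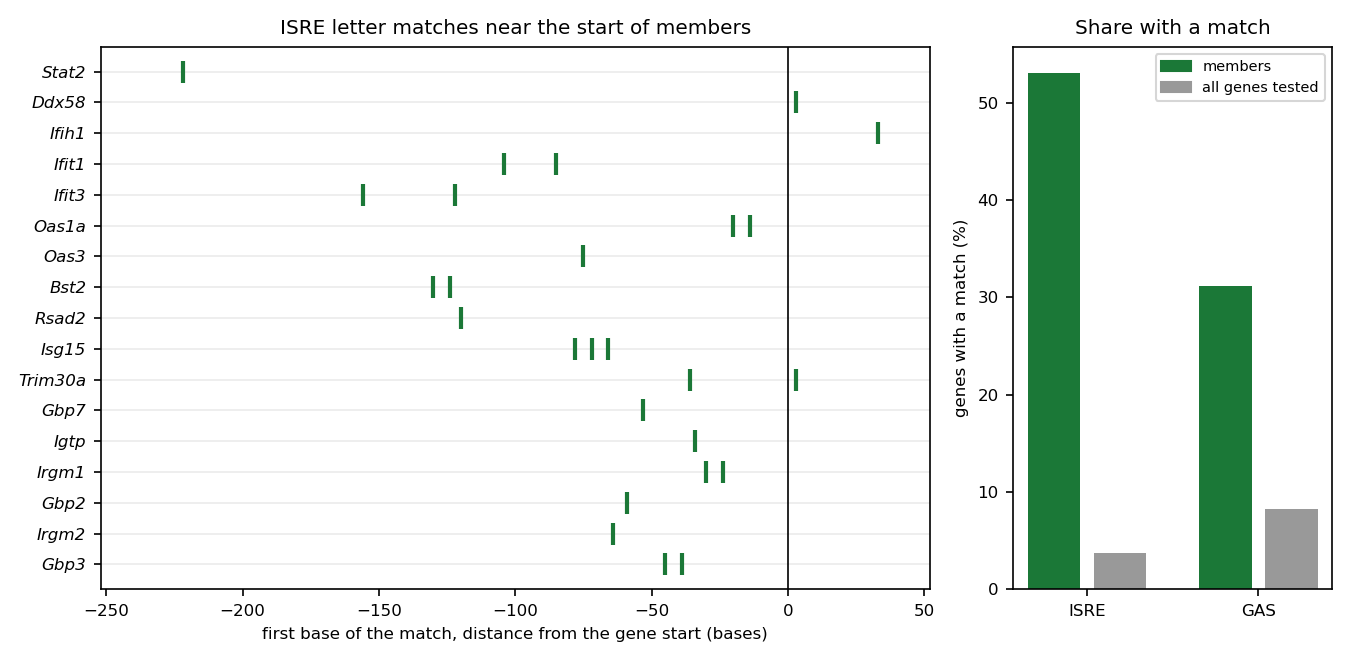
ISRE letter matches in the 17 members that have them. Left, each bar is the first base of 1 match by its distance in bases from the gene start, and Trim30a has 2 RefSeq starts. Right, the share of genes with a match in the 300-base window, which is 53.1% of members and 3.69% of all tested genes for ISRE, and 31.2% and 8.21% for GAS.

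The labelled cell type was checked against its markers. Cd3e, Cd3g and Lck had between 33039 and 87526 reads in all 6 libraries, Tbx21, the transcription factor of mature iNKT1 cells, had 0 reads in all, and Cd69, a marker of the gate, had 6120 to 16010 reads. The libraries differed from each other well beyond the genotypes: between 10835 and 14791 genes had at least 10 reads, and the BALB/c replicate 1 library stood apart, with summed markers of double-positive thymocytes of 423 CPM (reads scaled to a common library total, with TMM factors), compared with 43.02 to 172 CPM in the others. In that library Ifng, which encodes interferon gamma, had 312 reads and it had 0 in the other 5. In SKG replicate 3 the summed markers of myeloid and dendritic cells reached 146 CPM, compared with 8.36 to 64.8 CPM in the others. Lyz2 gave most of this sum, with 107 CPM. Cd68 and Fcgr3 were also highest there, with 28.1 and 10.6 CPM, while Csf1r, Itgam, Itgax, Flt3 and Xcr1 had 0 reads there. Siglech and Spib, which mark plasmacytoid dendritic cells, a major source of type I interferon, had 270 and 673 reads in that library, compared with at most 12 and 3 elsewhere. The other listed plasmacytoid markers went different ways. Ccr9 and Pacsin1 had 70.3 and 91.7 CPM there, the highest of the SKG libraries, but 93.7 and 117 CPM in BALB/c replicate 1. Tcf4 was lowest in SKG replicate 3 with 78 reads, and Klk1 had 0 reads in all. The sum over all 6 markers, most of it from Ccr9 and Pacsin1, was 190.2 CPM there and 214 CPM in BALB/c replicate 1. Whether such cells were present was not tested. The summed erythroid markers were 67.0 CPM in BALB/c replicate 1 and at most 1.53 CPM elsewhere. Those of thymic epithelial cells ran from 10.01 to 86.9 CPM, nearly all of it from Epcam, while Krt5 and Psmb11 had 0 reads in all libraries.

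The 2 genotypes were compared with the quasi-likelihood F test of edgeR across 12312 genes, and a gene was called at a false discovery rate under 0.1 with a fold change of at least 1.5. No member was called, nor was any other gene (0.00%), and the lowest adjusted p of a member was 0.734, for Ifngr1. It was also the only one of the 34 tested members with an unadjusted p under 0.05 (2.94%), compared with 5.45% of all genes tested. The 3 libraries of 1 genotype lay wholly above the 3 of the other for 2 members higher in SKG (5.88%, compared with 6.77% of all genes), Ifngr1 and Ifih1, and for 1 member higher in BALB/c (2.94%, compared with 7.12% of all genes), Xaf1. Each of these shares was below that of all genes.

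As a group the members were spread about 0. The log2 fold change of SKG over BALB/c was above 0 for 14 of the 34 and below 0 for 20 (58.8%, compared with 51.0% of all genes tested), and the median was -0.22, compared with -0.02 for all genes. This median rested on single libraries, since it was 0.07 without BALB/c replicate 2 and 0.08 without SKG replicate 2. At the other end it was -0.41 without BALB/c replicate 1. The values ran from -3.08 for Xaf1 to 3.50 for Oas1a, and 6 members were at least 1.5-fold higher and 10 at least 1.5-fold lower in SKG, although none of these passed the test. In bulk libraries fewer cells of a type that uses a gene and less RNA per cell cannot be told apart. With 3 libraries per genotype, an exact permutation test of a single value cannot reach a two-sided p below 0.1, so none is given.

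**Figure D2:**
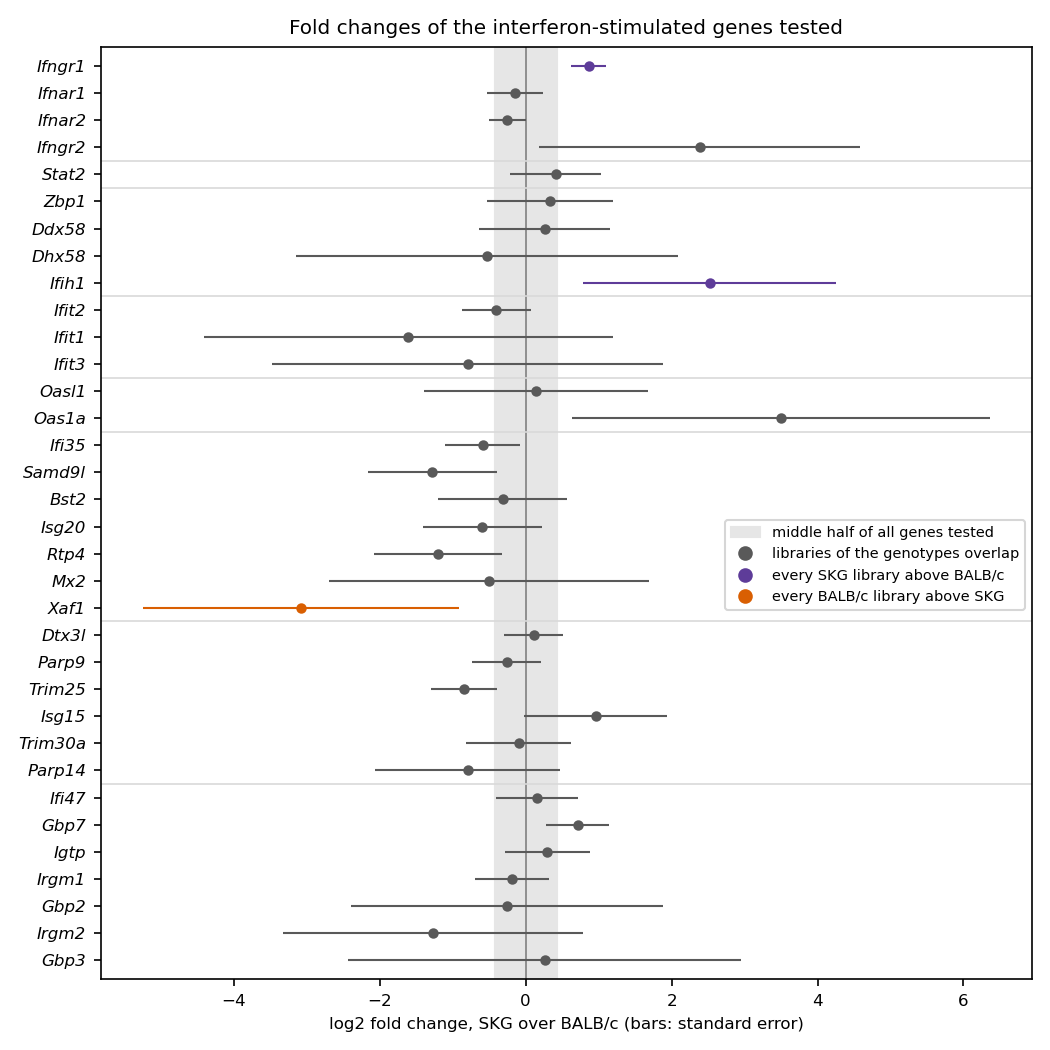
Log2 fold change of SKG over BALB/c (x axis) of the 34 tested members, ordered by role, with bars for the standard error. The grey band is the middle 50% of all 12312 genes tested. Only the 3 coloured members had libraries that did not overlap between genotypes: Ifngr1 and Ifih1 above 0 and Xaf1 below 0.

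Precision differed greatly between members. In 22 of the 42 all 6 libraries had at least 10 reads, and in this steadier group the log2 fold changes ran from -1.28 to 0.96 with standard errors of 0.24 to 1.27 and a median of -0.17, 13 of them below 0. Another 16 members had 0 reads in at least 1 library, and 12 of those had at least 100 reads in another. Of the 34 tested members, 8 (23.5%) had a library at 0, compared with 14.8% of all genes tested. A count of 0 allows up to 3 reads, or 0.0696 to 0.0807 CPM at these depths, and this floor covers counting error only, since reads without molecular identifiers are not independent molecules after amplification.

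Per length of exon, the highest mean levels were those of Ifngr1 at 44.1 CPM per kilobase, Ifi47 at 36.1, Ifnar1 at 29.1, Ifnar2 at 25.4 and Gbp7 at 17.8. The median level of the tested members was 6.55 CPM per kilobase, compared with 7.01 for all genes tested. Isg15, which many tissues use as the readout of an interferon response, had a level of 5.03 CPM per kilobase, and Rsad2, Mx1 and Ifi44 had levels of 0.537, 0.00328 and 0.00202. Thus 3 of the 4 receptor chains were among the 4 members with the highest levels. Summed over the 42 members, the level was 1128 to 1294 CPM in the BALB/c libraries and 1121 to 1248 CPM in the SKG libraries, which overlap.

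**Figure D3:**
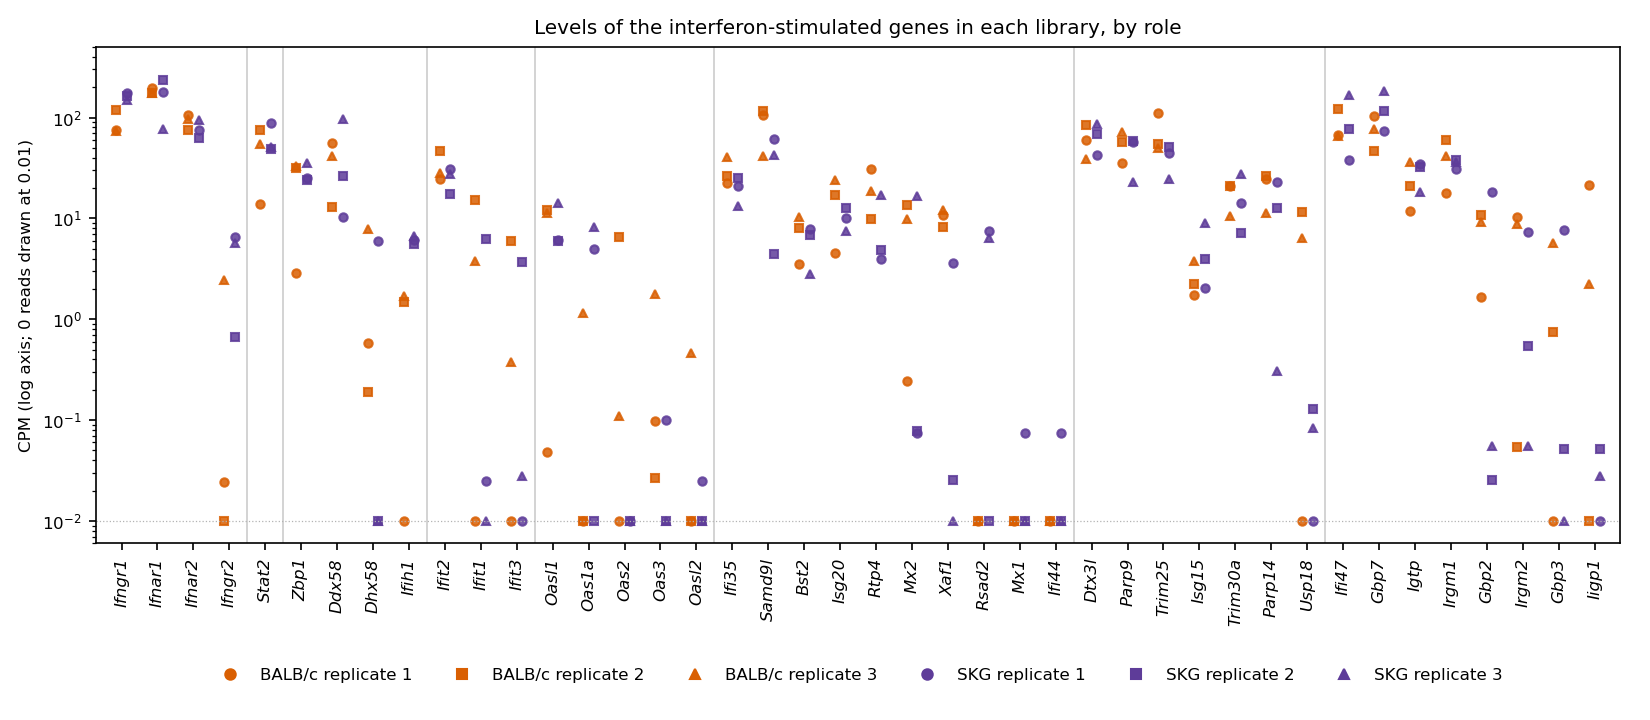
CPM of each of the 42 members in each library on a log axis, with 0 reads drawn at 0.01 and grey lines between roles. Orange marks BALB/c and purple SKG, with circles, squares and triangles for replicates 1, 2 and 3. Receptor chains other than Ifngr2 sit near the top in all libraries, while many Ifit, Oas and GTPase genes run from above 1 CPM down to 0 reads within 1 genotype.

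The receptor chains held the only member with an unadjusted p under 0.05. Ifngr1, the ligand-binding chain of the interferon gamma receptor (chr10:19591949-19610229, plus strand, GRCm38), had 3119, 4404 and 3300 reads in BALB/c replicates 1, 2 and 3 and 6991, 6349 and 5406 in the SKG ones. Scaled to depth this was 75.6, 119 and 73.1 CPM in BALB/c and 174, 163 and 149 CPM in SKG, so that every SKG library lay above every BALB/c library. The means were 89.1 ± 25.7 CPM in BALB/c and 162 ± 12.1 CPM in SKG (SD, n = 3 libraries each). The edgeR test gave a log2 fold change of 0.86 (SE 0.24), an unadjusted p of 0.0104 and an adjusted p of 0.734, which does not pass the threshold. Leaving out each library in turn kept the log2 fold change between 0.75 and 1.12. The summed markers of late mature thymocytes also lay higher in SKG, with 159 to 289 CPM compared with 116 to 133 CPM in BALB/c. Of these 5 markers 1, Klf2, had an unadjusted p under 0.05, and it was the only one whose libraries did not overlap. Their part in the Ifngr1 difference was not tested.

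The other 3 receptor chains overlapped between the genotypes. Ifnar1, a chain of the type I receptor, had 194, 177 and 173 CPM in BALB/c and 179, 236 and 76.7 CPM in SKG, so that SKG held both the highest and the lowest library (log2 fold change -0.15, SE 0.39, adjusted p = 0.991 in edgeR). Its partner Ifnar2 had 2456 to 4338 reads in the 6 libraries, with a log2 fold change of -0.25 (SE 0.25). Ifngr2, the chain that passes the interferon gamma signal on, had 1, 0 and 110 reads across the BALB/c libraries, compared with 264, 26 and 205 in the SKG libraries and was the receptor chain with the lowest level. The 4 chains together had 363 ± 16.2 CPM in BALB/c and 408 ± 72.4 CPM in SKG (SD, n = 3 libraries each).

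Stat2, which joins Irf9 on the ISRE, had 574, 2766 and 2448 reads across the BALB/c libraries, compared with 3591, 1904 and 1865 in the SKG libraries. BALB/c replicate 1 was the lowest of all, and the genotypes overlapped (log2 fold change 0.41, SE 0.62, adjusted p = 0.991 in edgeR). The rest of the pathway was taken from a list of 23 genes for interferons, kinases, transcription factors and feedback inhibitors, of which 18 were tested. Of these, 2 had an unadjusted p under 0.05 (11.1%, compared with 5.45% of all genes), both higher in SKG. The libraries did not overlap for 4 of the 18 (22.2%, compared with 13.9% of all genes), 2 in each direction. The median log2 fold change of the 18 was -0.09, compared with -0.02 for all genes tested, and none was called.

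The 2 with an unadjusted p under 0.05 were the kinases Jak1 and Tyk2, which sit on the type I receptor. Jak1, which the interferon gamma receptor also uses, had 27938, 22602 and 29470 reads across the BALB/c libraries, compared with 44666, 31639 and 36067 in the SKG libraries (log2 fold change 0.59, SE 0.15, adjusted p = 0.686 in edgeR). Tyk2 had 2326, 3282 and 3161 reads across the BALB/c libraries, compared with 4078, 5055 and 4182 in the SKG libraries (log2 fold change 0.69, SE 0.25, adjusted p = 0.834 in edgeR). Irf7 was higher in every BALB/c library. This transcription factor, which drives the genes of type I interferons and is itself induced by interferon, had 1946, 2346 and 2027 reads across the BALB/c libraries, compared with 495, 1456 and 1039 in the SKG libraries (log2 fold change -0.98, SE 0.49, adjusted p = 0.952 in edgeR). The genes of the interferons Ifnb1, Ifna4 and Ifnl3 had 0 reads in all 6 libraries.

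The nucleic acid sensors gave the second member that was higher in every SKG library. Ifih1 encodes Mda5, a cytosolic sensor of long double-stranded RNA. It had 0, 55 and 77 reads in BALB/c replicates 1, 2 and 3 and 244, 216 and 243 in the SKG ones, or 0, 1.48 and 1.70 CPM in BALB/c and 6.06, 5.56 and 6.72 CPM in SKG. The SKG libraries lay close together and above all BALB/c libraries, of which 1 was at 0, but the level was low in both and the edgeR test did not call it (log2 fold change 2.52, SE 1.73, adjusted p = 0.988). Ddx58, which encodes the RNA sensor Rig-I, had 2298, 484 and 1879 reads across the BALB/c libraries, compared with 420, 1016 and 3458 in the SKG libraries, and the spread within SKG, from 420 to 3458 reads, was wider than the difference between the means (log2 fold change 0.26, SE 0.90, adjusted p = 0.991 in edgeR). Zbp1, a sensor of nucleic acid in the Z form, had 119, 1168 and 1481 reads across the BALB/c libraries, compared with 1022, 938 and 1269 in the SKG libraries, with the BALB/c replicate 1 library far below the other 5 (log2 fold change 0.33, SE 0.86, adjusted p = 0.991 in edgeR). Dhx58, which encodes the regulator Lgp2, had at least 100 reads in 1 library of each genotype and at most 24 in the other 4.

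The Ifit genes encode proteins that bind foreign RNA and block its translation, and the 3 measured here overlapped between genotypes. Ifit2, the only one with reads in every library, had 1015, 1743 and 1265 reads across the BALB/c libraries, compared with 1230, 685 and 989 in the SKG libraries (log2 fold change -0.40, SE 0.48, adjusted p = 0.991 in edgeR). Ifit1 had 0, 561 and 171 reads across the BALB/c libraries, compared with 1, 240 and 0 in the SKG libraries. All 3 had fitted log2 fold changes below 0, but none passed the test, and for Ifit1 and Ifit3 the standard errors were 2.80 and 2.68. Without BALB/c replicate 2, the library in which both were highest, the values were 0.12 and 2.68. Ifit3 has a close copy, Ifit3b, and the aligner's filter on mapping quality would remove reads that fit both.

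The Oas genes encode enzymes that make oligoadenylates from double-stranded RNA, which switch on RNase L, and their relatives. Oasl1, the most abundant per length, had 2, 454 and 514 reads across the BALB/c libraries, compared with 244, 234 and 508 in the SKG libraries, and again BALB/c replicate 1 was near 0 (log2 fold change 0.14, SE 1.53, adjusted p = 0.999 in edgeR). Oas1a had 0, 0 and 52 reads across the BALB/c libraries, compared with 198, 0 and 297 in the SKG libraries and its standard error of 2.86 was the highest of all members. The other 3, Oas2, Oas3 and Oasl2, were too low to be tested: Oas2 had 244 reads in BALB/c replicate 2 and at most 5 elsewhere, Oas3 had at most 81 and Oasl2 at most 21 in any library. Oas1a is one of several near-identical neighbours, so its counts are uncertain.

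The antiviral effectors were the only one of the 8 roles whose summed level did not overlap between the genotypes. The 10 genes summed to 178, 197 and 157 CPM in BALB/c replicates 1, 2 and 3 and 115, 54.3 and 106 CPM in SKG replicates 1, 2 and 3. The means were 178 ± 20.0 CPM in BALB/c and 91.8 ± 32.8 CPM in SKG (SD, n = 3 libraries each), and every SKG library lay below every BALB/c library. All 7 tested members of the role (100%, compared with 51.0% of all genes tested) had a log2 fold change below 0, from -3.08 to -0.31. The other 3, Rsad2, Mx1 and Ifi44, were too low to be tested and had reads in SKG libraries only. None of the 7 had an unadjusted p under 0.05. Samd9l gave most of the sum in BALB/c replicates 1 and 2 and in SKG replicate 1. Without it the sums were 72.1, 82.6 and 116 CPM in BALB/c replicates 1, 2 and 3 and 54.2, 49.8 and 63.6 CPM in SKG replicates 1, 2 and 3, which did not overlap either. The sums were read for all 8 roles after the values were known, and no test was made of them. The roles were also drawn with earlier results of these data known. Among all single genes tested, 13.9% had libraries that did not overlap, and 1 role of 8 is no more than that share. The 2 stage 0 markers of the gate went opposite ways. Cd69 had a mean of 353 CPM in BALB/c and 193 CPM in SKG, with an unadjusted p under 0.05 and libraries that did not overlap, while Cd24a had a mean of 25.1 CPM in BALB/c and 70.4 CPM in SKG, with overlapping libraries. Their sum, which Cd69 dominates, was 364 to 399 CPM in BALB/c and 184 to 340 CPM in SKG. The part of these markers in the difference was not tested.

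Among the single effectors, Xaf1, which binds the apoptosis inhibitor Xiap (chr11:72301629-72313733, plus strand, GRCm38), was the one whose libraries separated. It had 446, 304 and 548 reads in BALB/c replicates 1, 2 and 3 and 147, 1 and 0 in the SKG ones, or 10.8, 8.20 and 12.1 CPM in BALB/c and 3.65, 0.0257 and 0 CPM in SKG. All 3 BALB/c libraries were above 300 reads and 2 of the SKG libraries had 1 read or none, so the fitted value of -3.08 was imprecise (SE 2.16, adjusted p = 0.988 in edgeR). Samd9l, a restriction factor for poxviruses, had 4359, 4259 and 1856 reads across the BALB/c libraries, compared with 2458, 172 and 1528 in the SKG libraries, of which SKG replicate 2 was far below the rest (log2 fold change -1.28, SE 0.88, adjusted p = 0.988 in edgeR). Ifi35, a partner of the factor Nmi, had 918, 968 and 1852 reads across the BALB/c libraries, compared with 845, 983 and 480 in the SKG libraries (log2 fold change -0.59, SE 0.51, adjusted p = 0.991 in edgeR). The genotypes overlapped for both.

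The remaining effectors overlapped between genotypes or were too low to be tested. Bst2, which encodes tetherin, Isg20, an exonuclease, and Rtp4, a chaperone with antiviral activity, had reads in every library and log2 fold changes of -0.31, -0.59 and -1.20. Bst2 is also a surface marker of plasmacytoid dendritic cells, and in SKG replicate 3, where Siglech and Spib were highest, it had its lowest count, 102 reads. Mx2, a dynamin-like GTPase, had 10, 498 and 447 reads across the BALB/c libraries, compared with 3, 3 and 597 in the SKG libraries, so both genotypes held libraries with at most 10 reads and libraries with at least 447. Rsad2, which encodes viperin, had 0, 0 and 0 reads across the BALB/c libraries, compared with 303, 0 and 233 in the SKG libraries. It so ran against the 7 tested members of the role, but it was too low to be tested. Mx1 and Ifi44 had 3 reads in SKG replicate 1 and 0 in the other 5 libraries.

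**Figure D4:**
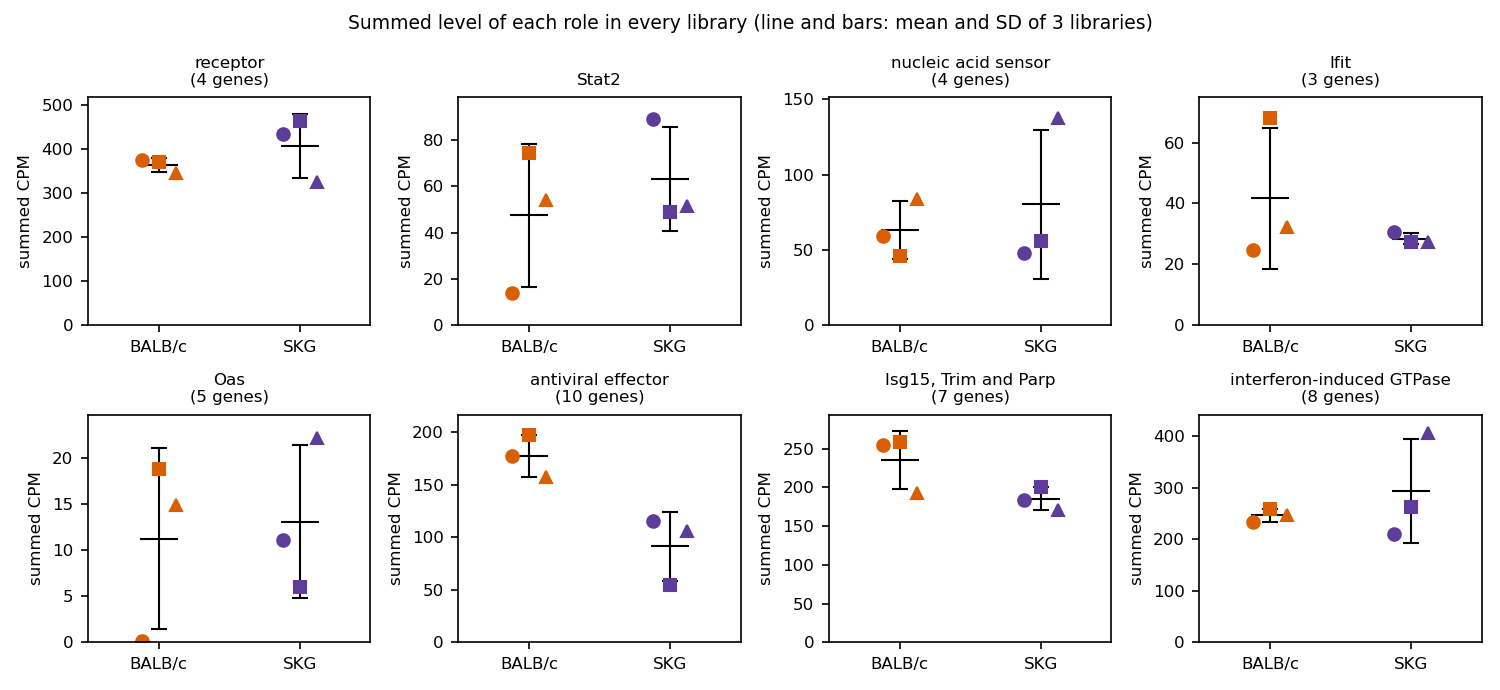
Summed CPM of the members of each role in every library, with circles, squares and triangles for replicates 1, 2 and 3 and with the mean and SD of the 3 libraries of each genotype. The antiviral effectors sit at 157 to 197 CPM in BALB/c and 54.3 to 115 CPM in SKG, and the genotypes overlap in the other 7 panels.

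Isg15, a ubiquitin-like protein joined to other proteins, had 71, 83 and 171 reads across the BALB/c libraries, compared with 83, 153 and 328 in the SKG libraries. Its fitted value was above 0 and did not pass the test (log2 fold change 0.96, SE 0.98, adjusted p = 0.991 in edgeR). Dtx3l and Parp9, which form a complex of a ubiquitin ligase and an ADP-ribosyltransferase, had the highest levels per length of this role. Dtx3l had 2455, 3132 and 1751 reads across the BALB/c libraries, compared with 1704, 2657 and 3123 in the SKG libraries (log2 fold change 0.11, SE 0.41, adjusted p = 0.994 in edgeR), and Parp9 had 1473, 2144 and 3259 reads across the BALB/c libraries, compared with 2318, 2256 and 822 in the SKG libraries (log2 fold change -0.26, SE 0.48, adjusted p = 0.991 in edgeR). The 2 subunits therefore overlapped between genotypes, and their fitted values lay on either side of 0.

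Trim25, the ubiquitin ligase that activates Rig-I, had the lowest adjusted p of this role, 0.959 in edgeR, and a log2 fold change of -0.85 (SE 0.45). It had 2048 to 4616 reads in BALB/c and 898 to 1975 in SKG, and the libraries overlapped on TMM-scaled totals but not in these reads. Trim30a and Parp14 had log2 fold changes of -0.10 and -0.80, and the reads of Parp14 ranged from 11 to 919 among the SKG libraries alone. Usp18, the protease that removes Isg15 from its targets and damps the type I receptor, was not tested. It had 0, 427 and 288 reads across the BALB/c libraries, compared with 0, 5 and 3 in the SKG libraries. The role as a whole had 235 ± 36.9 CPM in BALB/c and 185 ± 15.1 CPM in SKG (SD, n = 3 libraries each), with overlapping libraries.

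The interferon-induced GTPases, which attack the vacuoles of intracellular pathogens, had 8 members. Ifi47 was the most abundant per length after Ifngr1 and had 2773, 4470 and 2958 reads across the BALB/c libraries, compared with 1521, 2966 and 6112 in the SKG libraries, so SKG held both the lowest and the highest library (log2 fold change 0.16, SE 0.56, adjusted p = 0.992 in edgeR). Gbp7, a guanylate-binding protein, had 4287, 1715 and 3510 reads across the BALB/c libraries, compared with 2986, 4528 and 6598 in the SKG libraries (log2 fold change 0.71, SE 0.43, adjusted p = 0.972 in edgeR). Igtp and Irgm1, immunity-related GTPases, had at least 491 reads in every library and log2 fold changes of 0.30 and -0.18. Gbp2, Gbp3 and Irgm2 had at least 296 reads in 1 library of SKG and at most 2 in another, and their standard errors were 2.14, 2.69 and 2.06. The role had 247 ± 12.7 CPM in BALB/c and 294 ± 101 CPM in SKG (SD, n = 3 libraries each), and no member of it separated the genotypes. Gbp and Irgm genes are close relatives, so reads shared between them may have been lost.

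DESeq2, which applies its own filter, called 2 members that were too low for the edgeR test. Without shrinkage it called Iigp1 and Rsad2, compared with 2.58% of the genes to which it gave an adjusted p, and with shrunken fold changes it called no member, compared with 1.67% of genes. Iigp1, an immunity-related GTPase, had 885, 0 and 102 reads across the BALB/c libraries, compared with 0, 2 and 1 in the SKG libraries, with an adjusted p of 0.0313 in DESeq2. Rsad2, whose reads are given with the effectors, had an adjusted p of 0.0574 in DESeq2. Each had a library at 0 within the genotype in which it was higher. In edgeR with no filter on low counts their adjusted p was 0.645.

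Several members were near all or none from library to library, and some shared the libraries in which they had reads. Ifit1 and Ifit3, which are neighbours, were both highest in BALB/c replicate 2 and next in SKG replicate 2; Ifit3 had 0, 223 and 17 reads across the BALB/c libraries, compared with 0, 142 and 1 in the SKG libraries. Oas1a and Rsad2, on different chromosomes, had most of their reads in SKG replicates 1 and 3. Gbp2 and Gbp3 were both highest in SKG replicate 1, where they had 732 and 307 reads. These pairs were picked after the values were seen. The libraries were not ranked alike. BALB/c replicate 1 was lowest for 12 of the 34 tested members and highest for 4, while SKG replicate 3 was lowest for 7 and highest for 11. Ties at 0 reads went to the first library in order, with BALB/c replicate 1 first, so the lowest counts depend partly on that order. At least 10 reads were found for 28, 32 and 38 members in the BALB/c libraries and for 32, 28 and 28 in the SKG libraries.

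**Figure D5:**
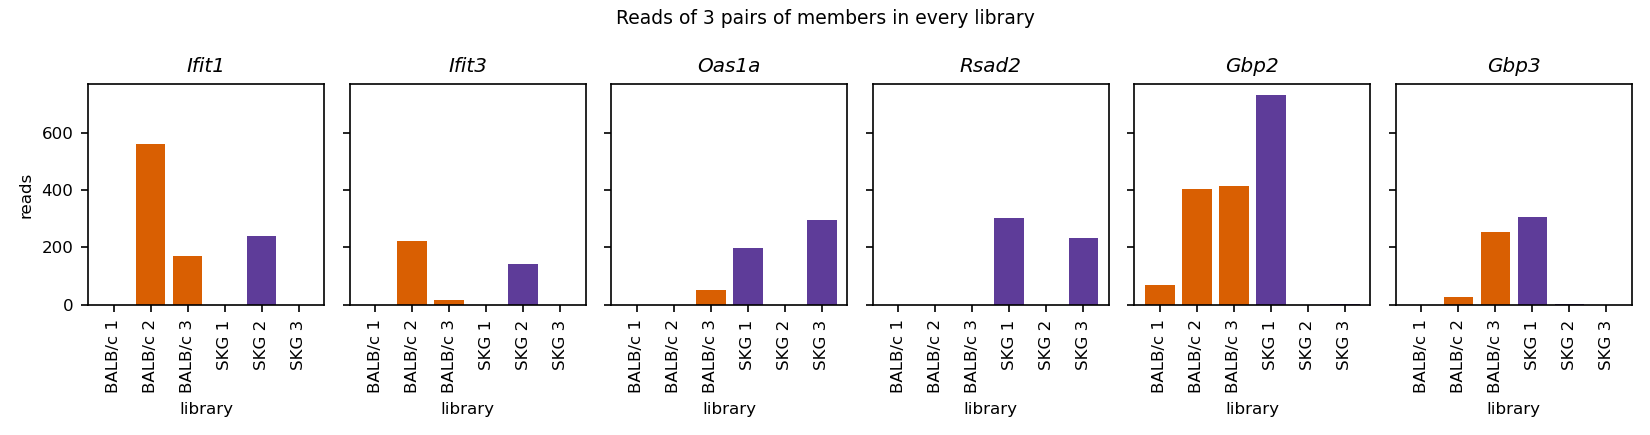
Reads (y axis) of Ifit1 and Ifit3, Oas1a and Rsad2, and Gbp2 and Gbp3 in the 6 libraries, orange for BALB/c and purple for SKG. Each gene is high in some libraries, such as Gbp2 with 732 reads in SKG replicate 1, and has between 0 and 2 reads in others.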

How the data were processed

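RNA was measured by 50-nt single-end sequencing in 6 libraries, 3 per genotype. The deposited values are raw read counts per gene. Per the labels, the methods and the submitters' processing notes, the authors aligned reads to GRCm38 with HISAT2 2.1.0, removed those with a mapping quality below 10 and counted them with featureCounts (Subread 1.4.4), without use of strand. The labels give 18 cycles of amplification with SMART-Seq v4, whereas the methods name another kit. A deposited table of the authors' own DESeq2 1.14.1 comparison (means, log2 fold changes, standard errors, p-values) was not used. Groups follow the labels.

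Here, counts were tested with edgeR 4.0.16 in R 4.3.3 (TMM factors, filterByExpr, quasi-likelihood F test, Benjamini-Hochberg over 12312 genes), after a check on simulated data. The SE was taken as the size of the log2 fold change over the root of F. CPM used TMM-scaled totals, and length is the union of exons in GENCODE M21. DESeq2 1.42.0 and limma 3.58.1 (voom) were alternatives, with other scalings, filters, replicate blocks and each library left out. The libraries are independent pools, and depth was 37176544 to 43115544 reads. The members, roles and lists were chosen with earlier results of these data known. Named in full were members whose libraries did not overlap or had an unadjusted p under 0.05, and the 2 most abundant per length of each role; other members named individually were chosen after their values were seen. Listed genes outside the 42 were named where p was under 0.05 or libraries did not overlap, up to 4 per list. Ly6c1 was added to these beside Ly6c2. Items withheld for evaluation are not reported here.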

Additional observations from a re-analysis of the deposited data

How the results depend on the processing

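Of 507 log2 fold changes of tested members recomputed in up to 15 other settings, 466 kept the sign of the main value and 41 reversed. Of these 41, 32 reversed when 1 library was left out, and none of the 507 was called. Never reversed were 15 of the 34 tested members, Ifngr1, Ifih1 and Xaf1 among them. The libraries of these 3 did not overlap, so leaving out 1 library could hardly reverse them, and their kept sign adds no support. The lowest and highest values over the 6 fits that each left out 1 library, for the members that reversed there, were Stat2 (-0.0216 to 0.88), Zbp1 (-0.18 to 0.72), Oasl1 (-0.44 to 0.58), Trim30a (-0.70 to 0.27), Gbp3 (-6.21 to 2.76), Igtp (-0.00918 to 0.80), Ddx58 (-0.99 to 0.71), Ifit1 (-8.63 to 0.12), Ifit3 (-7.00 to 2.68), Mx2 (-6.63 to 0.10), Gbp2 (-7.39 to 0.34), Irgm1 (-0.53 to 0.22), Dhx58 (-9.84 to 2.36), Bst2 (-0.63 to 0.0310), Dtx3l (-0.13 to 0.41), Ifnar1 (-0.49 to 0.21), Parp9 (-0.49 to 0.0777) and Ifi47 (-0.55 to 0.53). Elsewhere limma-voom reversed Ddx58 (-0.18), Gbp3 (-0.97) and Ifi47 (-0.0494).

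The replicate block by title number reversed Gbp3 (-3.60) and Ifi47 (-0.0682), and the replicate block by library number reversed Gbp3 (-1.98), Ifit3 (0.37), Irgm1 (0.19) and Isg20 (0.16). The deviations of same-numbered libraries had correlations of -0.145 to -0.00962 by title number, and -0.0384 and 0.00289 by library number. With so few pairs, these values cannot decide whether same-numbered libraries were handled together. With the title-number block 0 genes were called and 1 member had an unadjusted p under 0.05. With the library-number block 2 members did, neither of them higher in SKG, so that Ifngr1 was no longer among them. Only library numbers 2 and 3 occurred in both genotypes, so BALB/c replicate 3 and SKG replicate 1 had no partner in that block. Its comparison therefore rested on 2 pairs. Neither block changed a call.

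The number of genes called was 0 in edgeR and was 370 with DESeq2 without shrinkage, 231 with shrunken fold changes and 2 with no filter on low counts; the cause was not tested. Members called numbered 2 with DESeq2 without shrinkage and 0 in all other settings. Members with an unadjusted p under 0.05 numbered 1 in the edgeR test, 4 with DESeq2 without shrinkage, 3 with limma-voom, 5 with no filter (Ifngr1, Oas2, Usp18, Rsad2 and Iigp1) and 2 to 4 with a library left out. Members whose libraries did not overlap numbered 3, or 4 on library size alone, and 6 to 8 with a library left out, where fewer libraries separate more easily. The median log2 fold change of the members lay between -0.30 and -0.13 in the settings that kept all libraries and between -0.41 and 0.08 with 1 left out. Of the 7 antiviral effectors tested in the main fit, 6 or 7 stayed below 0 in every setting. In the main fit 51.0% of all genes tested were below 0. The settings reuse the same libraries, so these kept signs add no support. The count leaves out the 3 untested effectors in every setting. Of these, Rsad2 had a log2 fold change of 10.5 in edgeR with no filter and 10.0 in DESeq2 without shrinkage. The count of effectors below 0 was added after seeing the data, as was the sum without Samd9l. Depth limits the members with a library at 0, whose fold changes depend on the prior count.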

Other observations

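A further list of 69 genes that interferon induces, none of them among the 42, included genes for antigen presentation, Ifi27 and Ly6 proteins. Of these, 53 were tested and none was called. Their median log2 fold change of SKG over BALB/c was -0.06, with 20 above 0 and 33 below. The libraries did not overlap for 8 of the 53 (15.1%, compared with 13.9% of all genes tested), in 6 (11.3%, compared with 7.12%) with BALB/c above SKG and in 2 (3.77%, compared with 6.77%) with SKG above BALB/c. An unadjusted p under 0.05 was found for 4 (7.55%, compared with 5.45% of all genes tested), 2 in each direction.

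Ifi27, a small mitochondrial protein gene used as a marker of interferon responses, had 5881, 7221 and 8057 reads across the BALB/c libraries, compared with 3321, 3280 and 3767 in the SKG libraries (log2 fold change -0.93, SE 0.20, adjusted p = 0.619 in edgeR). Tapbp, which encodes tapasin and helps load peptides onto MHC class I, had 14384, 10476 and 10615 reads across the BALB/c libraries, compared with 7539, 7120 and 7065 in the SKG libraries (log2 fold change -0.61, SE 0.18, adjusted p = 0.804 in edgeR). Both were higher in every BALB/c library. Znfx1, a sensor of viral RNA, had 968, 718 and 1202 reads across the BALB/c libraries, compared with 1739, 3778 and 1975 in the SKG libraries (log2 fold change 1.49, SE 0.42, adjusted p = 0.734 in edgeR), and Ly6c2, a surface protein of some T cells and monocytes, had 40, 75 and 105 reads across the BALB/c libraries, compared with 168, 447 and 547 in the SKG libraries (log2 fold change 2.53, SE 0.96, adjusted p = 0.871 in edgeR). These 2 were higher in every SKG library. Ly6c1, also on this list, went the other way from Ly6c2 and was higher in every BALB/c library. It had 59, 117 and 132 reads across the BALB/c libraries, compared with 36, 0 and 1 in the SKG libraries (log2 fold change -3.01, SE 1.87). Whether reads were shared or lost between Ly6c1 and Ly6c2 was not tested.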
